A study of Mus musculus with 82 samples.

Results

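U46619, a stable synthetic analog of thromboxane A2, was added to aortic vascular smooth muscle cells (aVSMC) that already received epidermal growth factor (EGF) and angiotensin II (AngII), and the transcriptome was measured after 24 h. The comparison is EGF+AngII+U46619 against EGF+AngII, with 6 libraries in each group, 1 from each of 6 mice, so 12 of the 82 libraries of the series. The libraries were chosen by their labels alone, and the cultures were compared within the mouse they came from. Primary cultures from aortas of C57BL/6 mice were grown in medium with serum, insulin and EGF, used after a limited number of passages, and kept without serum or supplements for 24 h before the stimuli. Both groups received EGF at 10 µg/L and AngII at 10 nM, and 1 of them also received U46619 at 1 µM. EGF and AngII were thus present in every culture compared, and the added substance is the only labelled difference.

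EGF binds the EGF receptor (EGFR), a receptor tyrosine kinase that feeds the RAS and ERK cascade. AngII and thromboxane act on G protein-coupled receptors, AT1R and the thromboxane prostanoid receptor (TP), which in smooth muscle couple to Gq and to G12/13 and raise calcium and RhoA activity. RhoA drives actin polymerization, which releases the transcription factor partners of SRF and YAP, and G protein-coupled receptors can also transactivate EGFR through shed EGFR ligands. In the vessel wall thromboxane is known for contraction, growth and remodelling, and prostacyclin, acting through its receptor IP, is its functional opponent.

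A total of 14653 genes passed the filter on low counts, outside chromosomes 9, X and Y and the mitochondrial chromosome, whose genes are not analysed here. The 12 libraries held 19041453 to 20551231 counts. Levels are given as FPM, edgeR's CPM with TMM factors, which can be compared between libraries for a gene but not between genes of different length. Genes were called differentially expressed (DEG) when edgeR and DESeq2 each gave an FDR under 0.05 and 1 group reached 5 FPM on average. Log2-fold changes are those of edgeR with the standard error (SE), and an FDR given beside them is edgeR's Benjamini-Hochberg adjusted p, in the fit with the mouse as a term.

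The EGF+AngII+U46619 library of mouse 3 stood apart from the other 41 libraries collected after 24 h. Ribosomal protein genes took 17.5% of its counts, against 4.17 to 10.1% elsewhere, its TMM factor was 0.646 against 0.836 to 1.13, and 15716 genes were detected against 16634 to 19254. Genes with over 5 kb of exon took 17.4% of its counts, against at least 29.0% elsewhere, and genes under 1 kb took 15.6%. The other library of mouse 3, EGF+AngII, had the highest ribosomal protein share among the others. Where the count of a list changed without that library, the count without it is also given. Mouse 2 is the other culture pair with weight, as its response was often the largest of the 6.

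**Figure D1:**
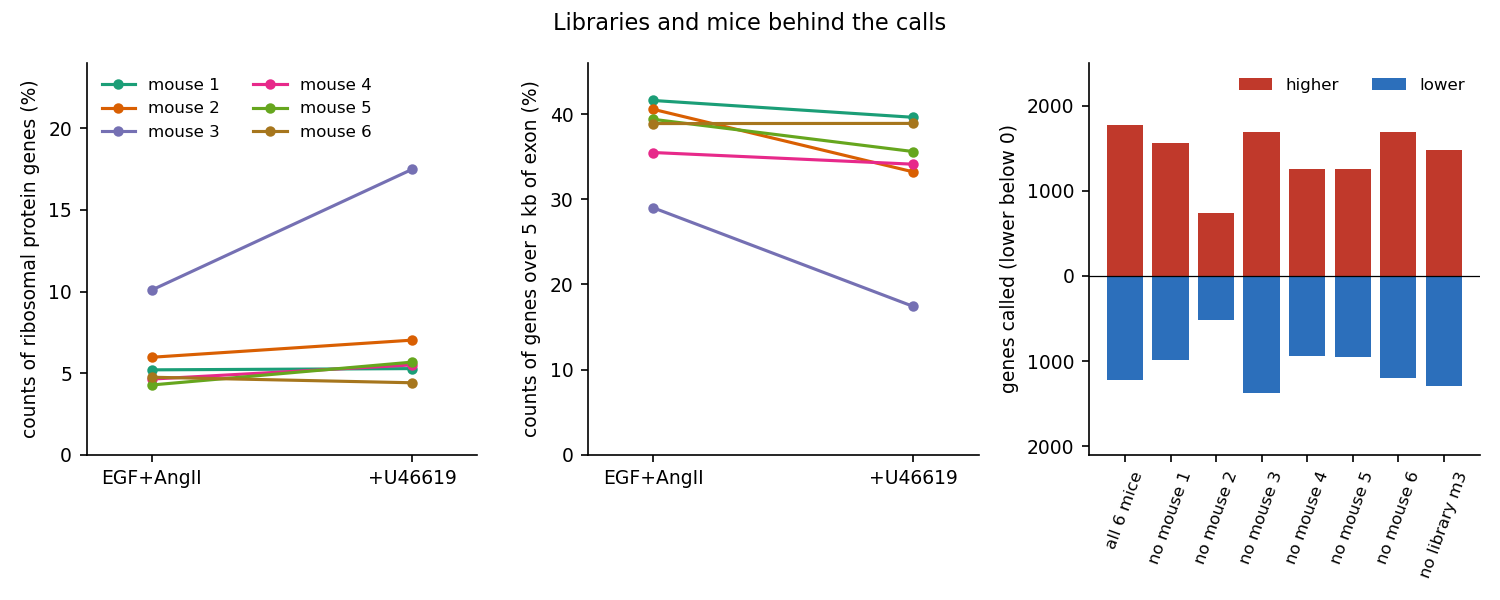
Library measures and calls. Left and middle: percent of counts of ribosomal protein genes and of genes with over 5 kb of exon in the EGF+AngII and EGF+AngII+U46619 libraries of each mouse, joined by a line. The library of mouse 3 with U46619 sits at 17.5 and 17.4%. Right: DEG higher (above 0) and lower (below 0) with U46619, in all 6 mice, without each mouse, and without that library alone. The counts are lowest without mouse 2 (741 higher, 522 lower).

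The cultures carried smooth muscle markers at widely different levels. Summed over 6 marker genes, the level was 459 to 9725 FPM (median 2040) with EGF+AngII and 3332 to 15977 FPM (median 9092) with EGF+AngII+U46619, most of it Acta2. Of these 6 markers 3 were DEG, all higher (2 without the library of mouse 3, 1 without mouse 2). At an unadjusted p under 0.05 in edgeR, 3 were higher and 1 lower. The fits without mouse 4 and without mouse 6 each called 1 lower. Myh11 had a log2-fold change of 0.23 ± 0.47. Endothelial markers followed the mouse and not the treatment: 7.89 and 4.92 FPM in mouse 1, 7.24 and 6.75 FPM in mouse 2, but 2482 and 2460 FPM in mouse 6, with 0 of 8 tested markers called and 0 at an unadjusted p under 0.05 in edgeR. Of 10 adventitial fibroblast markers 0 were higher and 4 lower (Scara5, Lum, Dpt and Pdgfra, and 6 lower without the library of mouse 3), and their summed level was 2681 to 6386 FPM against 2647 to 4414 FPM, with 7 lower and 0 higher at an unadjusted p under 0.05. Of 4 macrophage and leukocyte markers tested 1 was higher and 1 lower, with sums of 18.6 to 112 FPM against 21.5 to 85.5 FPM. Adipocyte markers had 1 of 7 lower, and their highest sum, 2526 FPM, was in the EGF+AngII library of mouse 6 (448 FPM with U46619), and 6 of the 7 were lower at an unadjusted p under 0.05, with a median of −1.49. Of 2 neural and Schwann markers tested 0 were called, but 1 higher and 1 lower without the library of mouse 3 (sums of 3.30 to 39.1 against 1.90 to 36.7 FPM). In such bulk RNA, fewer cells of a type and less RNA per cell cannot be told apart.

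Adding U46619 to EGF+AngII changed 2989 genes, 20.4% of those tested. Of these, 1772 were higher (12.1%) and 1217 lower (8.31%), with a median log2-fold change of 0.61 among the former and −0.73 among the latter. More than 2-fold changes were found for 271 higher and 360 lower genes, and more than 4-fold changes for 31 and 56. Among the genes with the largest increases were the secreted granin-like peptide precursor Vgf, the natriuretic peptide gene Nppb, the sarcomere-associated cofactor Ankrd1 and Ptgs2, the inducible cyclooxygenase. The largest decreases included the ATP-binding cassette transporters Abca8a and Abca9, the leucine-rich proteoglycans Aspn and Lum, and the alcohol dehydrogenase Adh1. All 6 mice agreed in direction for 2037 DEG, 1142 higher and 895 lower. The libraries of the groups did not overlap for 54 higher and 56 lower DEG, where 0.45 and 0.566% of all genes tested did so.

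The number of DEG differed with the libraries and the model of the fit, and the cause was not tested. It was 2763 without the library of mouse 3 with U46619 (1473 higher, 10.1%, and 1290 lower, 8.8%, 2134 of them among the 2989). Without mouse 2 it was 1263 (741 higher, 5.06%, and 522 lower, 3.56%). Without mouse 3 it was 3063 (1694 higher, 11.6%, and 1369 lower, 9.34%). It was 1069 with only the 2 groups in the fit (47.3% of them higher, against 59.3% in the fit of all groups), 297 without the mouse as a term (74.1% higher), and 0 when limma was run on the 6 within-mouse differences, where 4555 genes had an unadjusted p under 0.05 and the smallest FDR was 0.0527. Transcript length moved with the library of mouse 3: genes under 1 kb held 225 higher and 13 lower DEG with it and 81 and 26 without it, and genes over 5 kb 415 and 664 against 540 and 583.

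**Figure D2:**
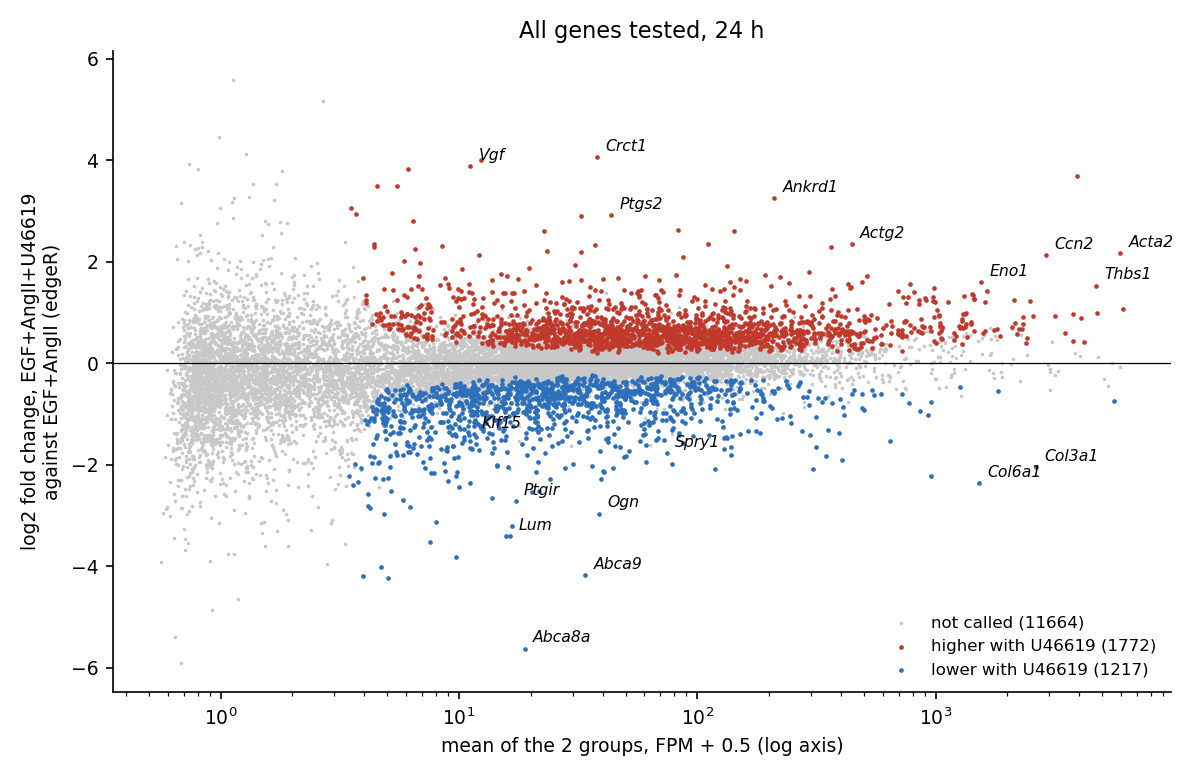
Log2-fold change of EGF+AngII+U46619 against EGF+AngII (edgeR) against the mean FPM of both groups (log axis) for all genes tested, with 1772 genes called higher in red, 1217 called lower in blue and genes not called in grey. Acta2, Ccn2 and Thbs1 combine large increases with high levels, and Col6a1 and Col3a1 large decreases with high levels.

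None of the receptor genes of the 3 substances was a DEG. Tbxa2r, which encodes TP (GRCm38 chr10:81328731-81335172, + strand), was at 14.0, 48.4 and 82.4 FPM (lowest, median and highest of the 6 libraries, the order used throughout) with EGF+AngII and at 9.46, 24.9 and 38.9 FPM with U46619 added. It was lower in 5 of 6 mice and higher in mouse 3, where it went from 14.0 to 34.01 FPM. The log2-fold change was −0.82 ± 0.32 with an FDR of 0.0591 in edgeR and 0.0448 in DESeq2. Without the library of mouse 3 it was −1.15 with an FDR of 0.00805, which passed the call. Egfr had a log2-fold change of −0.27 ± 0.23 (FDR 0.402) and was higher in 3 of 6 mice. Agtr1a, the main rodent AT1R gene, stayed at or below 3.78 FPM in every library, and Agtr1b did not pass the filter.

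Within the wider prostanoid system, 2 of 13 genes tested were higher (15.4% against 12.1% of all genes) and 2 lower (15.4% against 8.31%), with 1 and 3 without the library of mouse 3 and 1 and 1 without mouse 2. Ptgs2 was at 0.956, 12.0 and 40.9 FPM with EGF+AngII and at 21.7, 44.6 and 167.5 FPM with U46619 added (2.91 ± 0.69, FDR 0.00294). It rose in 5 of 6 mice and was lower by 0.90 on the log2 scale in mouse 3, and the groups overlapped. Ptgis, the prostacyclin synthase, rose by 0.61 ± 0.21 but lost its call without the library of mouse 3 (0.47) or without mouse 2 or 4. Ptgir, which encodes the prostacyclin receptor IP, fell in all 6 mice, from 3.57, 15.7 and 72.1 FPM to 1.43, 2.66 and 7.32 FPM. Its log2-fold change was −2.72 ± 0.44 (FDR 9.28e-05). Ptger4, an EP4 prostaglandin E2 receptor gene, changed by −1.16 ± 0.39 (FDR 0.0281), a call lost without mouse 1, 2 or 6.

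Signal terminators and ligands of the EGFR and G protein pathways moved in both directions. Of 6 EGFR ligand genes tested, Hbegf (1.45 ± 0.34, FDR 0.00276) and Ereg (0.77 ± 0.28, FDR 0.0432) were called higher (33.3% against 12.1% of all genes) and 0 lower. The call of Ereg held only in the fit without mouse 3 among those that left out a mouse. At an unadjusted p under 0.05 in edgeR, 2 ligands were higher and 3 lower, and the list median was 0.02. Btc (−0.92, FDR 0.0377) was among the lower ones, under the minimum of 5 FPM. Without mouse 1 the calls were 1 higher and 1 lower. Of 13 feedback inhibitors of ERK and EGFR, 4 rose (30.8% against 12.1% of all genes) and 3 fell (23.1% against 8.31%). Without the library of mouse 3 these numbers were 4 and 2. Dusp5, a nuclear ERK phosphatase, went from 7.38, 13.9 and 21.7 FPM to 25.8, 43.9 and 56.4 FPM without overlap of the groups (1.62 ± 0.28, FDR 0.000159), and Errfi1, which inhibits the EGFR kinase, rose by 0.95 ± 0.29 but not without mouse 2, 4 or 5. Spry1, a Sprouty inhibitor of receptor tyrosine kinase signalling, fell in all 6 mice from 45.6, 81.0 and 225 FPM to 19.6, 25.3 and 65.4 FPM, with a log2-fold change of −1.77 ± 0.24 (FDR 1.61e-05). Spry4 changed by −1.31 ± 0.48 (FDR 0.0441), a call lost without mouse 1, 2 or 5. Among 10 RGS genes, whose products switch off G proteins, Rgs16 (2.08 ± 0.41) and Rgs19 rose, and Rgs5 (−1.72 ± 0.45), Rgs4 (−1.64 ± 0.53) and Rgs2 (−1.29 ± 0.37), the regulator that limits Gq signalling in smooth muscle, fell. Rgs5 lost its call without mouse 4, Rgs2 without mouse 2 or 6, and Rgs4 without mouse 2, 4, 5 or 6. Without mouse 2, the feedback list held 1 higher and 1 lower gene, the RGS list 2 and 1. Without the library of mouse 3 the RGS list held 2 and 3. Its shares with all libraries were 20.0% higher and 30.0% lower.

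**Figure D3:**
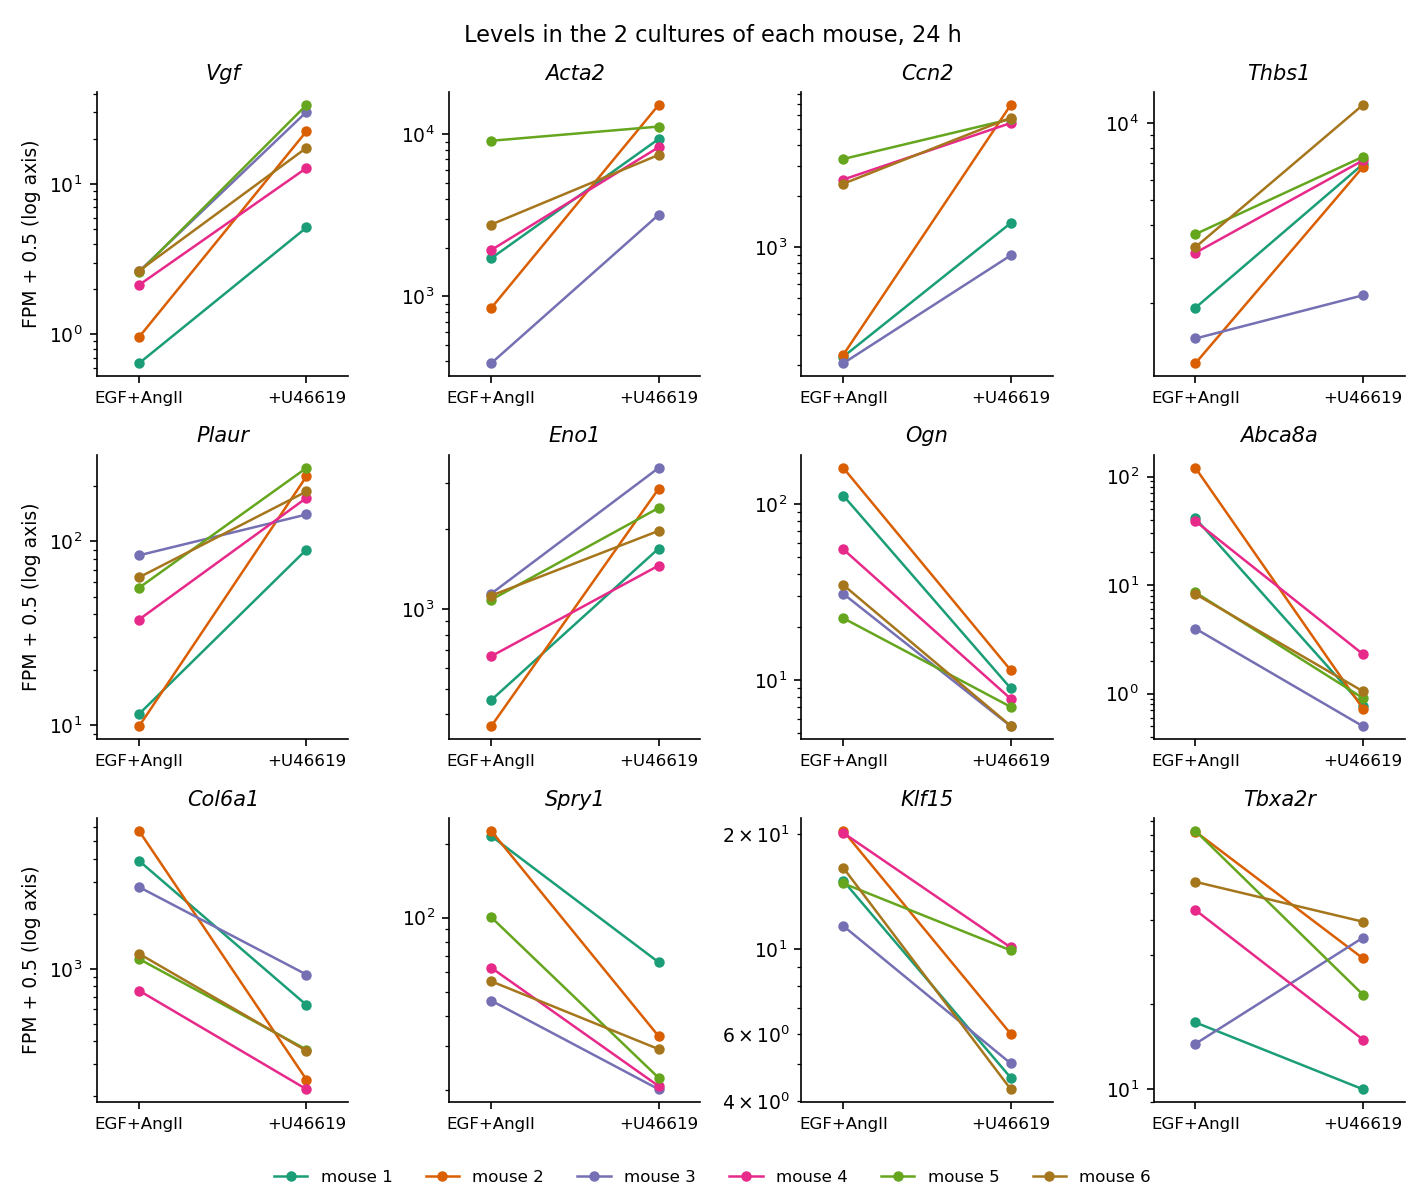
FPM + 0.5 (log axis) of 12 genes in the EGF+AngII culture and the EGF+AngII+U46619 culture of each mouse, joined by a line in the colour of the mouse. Vgf, Acta2, Ccn2, Thbs1, Plaur and Eno1 rise in all 6 mice, Ogn, Abca8a, Col6a1, Spry1 and Klf15 fall in all 6, and Tbxa2r, not called, is lower in 5 and higher in mouse 3.

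Several transcription factors of the AP-1 group were higher at 24 h, whereas the EGR genes were not called. Of 14 AP-1, EGR and related immediate early genes, 8 were DEG, all higher (57.1% against 12.1% of all genes, 7 without the library of mouse 3 and 2 without mouse 2), with a list median of 0.63 against −0.03 over all genes tested. Fosl1, the FRA-1 subunit of AP-1, had the largest increase of the list (1.64 ± 0.53, FDR 0.0225), followed by Ier3 (1.40 ± 0.27, FDR 0.000425), Maff (1.10 ± 0.27) and Atf3 (1.05 ± 0.29). Jun (0.73), Junb (0.92) and Jund (0.66, not without the library of mouse 3) were also called. Fos (0.06), Fosb (0.50), Fosl2 (0.17), Egr1 (−0.69), Egr2 (−0.52) and Egr3 (−0.77) were not. The call of Fosl1 was lost without mouse 1, 2, 4 or 5 and that of Atf3 without mouse 2. The median within-mouse difference of the list in mouse 3 was −0.37, below that of the other mice.

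Actin genes of the contractile apparatus rose. Acta2, smooth muscle alpha-actin, which is among the smooth muscle markers above, went from 386, 1823 and 9113 FPM to 3185, 8829 and 15164 FPM. It rose in all 6 mice, least in mouse 5, which already had 9113 FPM with EGF+AngII, and the groups overlapped because of that library (2.17 ± 0.40, FDR 0.000302). Actg2, the enteric smooth muscle gamma-actin, was at 3.74, 78.8 and 282 FPM and then at 19.5, 190 and 3111 FPM (2.35 ± 0.41, FDR 0.000196). Tropomyosin Tpm2 (1.56 ± 0.28), the regulatory light chain Myl9 (1.18 ± 0.29), leiomodin Lmod1 (0.94), the factor Srf (0.56) and smoothelin Smtn (0.37, not without the library of mouse 3) were the other members called higher, 7 of 15 in all (7 without the library of mouse 3, 4 without mouse 2). The intermediate filament gene Synm was the 1 member called lower (−1.26 ± 0.42), and not so without mouse 1, 2, 4 or 5. In this list 46.7% were higher and 6.67% lower, against 12.1 and 8.31% of all genes. Smooth muscle myosin Myh11 (0.23), Mylk (−0.91), Des (−0.23) and Myocd (1.27) were not called.

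Cytoskeletal genes rose as well. Among 14 cytoskeletal genes and SRF targets, of which Srf also stands in the contractile list, 7 were higher and 0 lower (9 and 0 without the library of mouse 3, 4 and 0 without mouse 2). The cytoplasmic gamma-actin Actg1 was at 2143, 3224 and 4310 FPM and then at 4957, 5661 and 10103 FPM, with no overlap (0.99 ± 0.20, FDR 0.000648). Actb (0.98 ± 0.22), the PDZ and LIM protein Pdlim7 (0.91 ± 0.18), Actn1 (0.88) and Tpm4 (0.68) rose as well, whereas Vcl (−0.01) and Myh9 (0.55) were not called. Nppb, B-type natriuretic peptide, had the largest fold change of the list (3.48 ± 0.81, FDR 0.00245) at a low level, with 0, 0.358 and 0.981 FPM against 0.0541, 3.33 and 33.4 FPM, and lost its call without mouse 2. Actin genes have near-identical copies elsewhere in the genome, and reads placed at several sites were counted, so the split between copies is uncertain.

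Among targets of the YAP and TEAD transcription complex, genes of secreted or stretch-responsive proteins had the largest increases. Of 21 targets 7 were higher (33.3% against 12.1% of all genes), 0 lower and 14 not called, with a median of 0.36 (10 and 0 without the library of mouse 3, 5 and 0 without mouse 2). Ccn2, connective tissue growth factor (chr10:24595442-24598683, +), was at 205, 1298 and 3313 FPM with EGF+AngII and at 891, 5555 and 6918 FPM with U46619 (2.13 ± 0.48, FDR 0.00181). It rose in all 6 mice while the groups overlapped. Ankrd1 (chr19:36111961-36120099, −) was at 1.31, 18.3 and 208 FPM and then at 3.82, 268 and 1027 FPM (3.24 ± 0.69, FDR 0.00107), and the related matricellular gene Ccn1 rose by 1.47 ± 0.36 (FDR 0.00372). Axl, a receptor tyrosine kinase, rose by 0.92 ± 0.16, and Dock5, Ajuba and Tead4 by 0.86, 0.55 and 0.54.

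Promoter sequences from RefSeq (GRCm38.p6) were available with 1 entry for 7885 of the 14653 genes. They are shown for 3 genes called higher whose window held a motif of TEAD, SRF or AP-1, factors named above, and only as far as the bases before both the RefSeq start and the gene as annotated in GENCODE M21. TEAD factors bind CATTCC, read as GGAATG on the other strand, AP-1 binds TGANTCA, and SRF binds the CArG box. These are in capitals below, 5′ to 3′ on the strand of the gene, at chr3:145649986-145650235 (−) for Ccn1, chr2:156775214-156775419 (+) for Myl9 and chr7:24462233-24462482 (+) for Plaur, the urokinase receptor gene described further on.
Ccn1: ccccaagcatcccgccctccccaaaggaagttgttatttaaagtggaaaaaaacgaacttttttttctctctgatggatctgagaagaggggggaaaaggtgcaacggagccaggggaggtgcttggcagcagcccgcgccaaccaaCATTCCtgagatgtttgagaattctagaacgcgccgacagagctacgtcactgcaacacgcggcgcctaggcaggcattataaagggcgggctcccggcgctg
Myl9: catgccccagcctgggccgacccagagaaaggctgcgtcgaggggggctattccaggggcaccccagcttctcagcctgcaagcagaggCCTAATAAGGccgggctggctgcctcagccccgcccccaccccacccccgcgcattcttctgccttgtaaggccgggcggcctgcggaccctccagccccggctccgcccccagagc
Plaur: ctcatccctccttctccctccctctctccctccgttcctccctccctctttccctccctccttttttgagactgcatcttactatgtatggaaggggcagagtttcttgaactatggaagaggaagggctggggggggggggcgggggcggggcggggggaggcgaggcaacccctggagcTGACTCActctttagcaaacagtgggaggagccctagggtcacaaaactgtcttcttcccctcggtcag
The TEAD motif began 103 bases before the RefSeq start in Ccn1 and the AP-1 motif 69 bases before it in Plaur. Windows of 250 bases before to 50 after the RefSeq start, which for some genes lies inside the longer gene of GENCODE, were searched on both strands for each motif on its own, without leaving out matches that overlap another motif. The TEAD motif was in 6 of 13 promoters of the YAP and TEAD targets (46.2%), in 107 of 996 promoters of DEG called higher (10.7%), in 74 of 667 of those called lower (11.1%) and in 949 of all 7885 (12.0%). It was also in 4 of 10 promoters of the contractile list (40.0%), so the share was not particular to these targets. The targets also held CCAAT more often (7 of 13, 53.8%) than all promoters (38.8%). A CArG box was in 2 of 10 promoters of the contractile list (20.0%), in 1.91% of DEG higher, 0.75% of DEG lower and 1.28% of all promoters. The AP-1 motif was in 4.92, 6.9 and 4.96%, the E2F-type motif GCGGGAA in 9.04, 7.05 and 8.5%, and CCAAT in 38.5, 40.0 and 38.8% of the promoters of DEG higher, DEG lower and all genes. These shares describe letters in a window and were not tested.

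The plasminogen system and the provisional matrix held members with large increases. Plaur, the receptor that holds urokinase at the cell surface, went from 9.36, 46.2 and 83.4 FPM to 89.8, 179.1 and 250 FPM with no overlap (2.34 ± 0.40, FDR 0.000159). Serpinb2 (PAI-2) rose by 3.83 ± 0.78 in 5 of 6 mice, at 0.603 to 33.9 FPM with U46619, whereas Plat, tissue plasminogen activator, fell by 1.08 on the log2 scale (SE 0.34, FDR 0.0189), a call lost without mouse 1, 2 or 3. In all, 3 of 12 genes of the system were higher and 3 lower (3 and 3 without the library of mouse 3, 3 and 1 without mouse 2).

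Thbs1, thrombospondin 1, which activates latent TGF-beta, was at 1166, 2522 and 3699 FPM and then at 2140, 7030 and 11740 FPM (1.52 ± 0.21, FDR 2.04e-05). It rose in each mouse, and the groups overlapped only through mouse 3. Tenascin C, Tnc, rose by 1.80 ± 0.50 (FDR 0.00914) and was called without each mouse in turn. Of 16 provisional matrix and matricellular genes, 5 were higher (Ccn2, Tnc, Thbs1 and Ccn1 among them) and 1, the versican gene Vcan, lower (−1.29), and the same numbers were 5 and 0 without the library of mouse 3 or without mouse 2. With all libraries, 31.2% of the list were higher and 6.25% lower, against 12.1 and 8.31% of all genes. Fibronectin Fn1 (−0.09) was not called. Spp1, osteopontin, was higher in 3 of 6 mice with a log2-fold change of 0.45 ± 0.67 (FDR 0.666).

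Cytokine and receptor genes that rose were Csf1, the macrophage growth factor (1.42 ± 0.31, FDR 0.00146), Lif (1.61 ± 0.35, FDR 0.00124), Clcf1 (0.82) and Il1rl1, which encodes the interleukin-33 receptor ST2 (2.13 ± 0.45, FDR 0.00102). Csf1 was at 377, 868 and 1389 FPM and then at 290, 2662 and 3828 FPM. It rose in 5 of 6 mice and was lower by 0.38 on the log2 scale in mouse 3. The chemokine genes Ccl11 (−2.98 ± 0.95) and Ccl2 (−1.19) fell, Ccl11 not without mouse 1 or 2 and Ccl2 not without the library of mouse 3, where Ccl11 had −5.94. The list had 4 of 13 higher (30.8% against 12.1% of all genes) and 2 lower (15.4% against 8.31%). Its counts were 5 and 2 without the library of mouse 3 and 4 and 0 without mouse 2.

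Interstitial matrix genes fell. Of 9 small leucine-rich proteoglycans tested, which bind and space collagen fibrils, 7 were lower and 0 higher (77.8% against 8.31% of all genes), with a list median of −2.09 (7 and 0 without the library of mouse 3, 6 and 0 without mouse 2). Ogn, osteoglycin (chr13:49608046-49624501, +), was at 22.01, 44.6 and 160 FPM with EGF+AngII and at 4.98, 6.95 and 10.9 FPM with U46619. Every library with U46619 lay below every library without it (−2.97 ± 0.43, FDR 4e-05). Asporin Aspn (−3.42 ± 0.44, FDR 1.06e-05), lumican Lum (−3.41 ± 0.69) and decorin Dcn (−2.09 ± 0.59) fell in all 6 mice too, although the call of Dcn was lost without mouse 2. Lum is also one of the adventitial fibroblast markers, 4 of 10 of which fell, as did 1 of 7 adipocyte markers, and the part of such cells in the decreases of matrix and ABCA genes was not tested.

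Collagen genes had 0 higher and 8 lower of 17 (47.1% lower against 8.31% of all genes), with a median of −0.74. The collagen counts were 1 and 7 without the library of mouse 3 and 0 and 6 without mouse 2. The collagen VI chains Col6a1 (chr10:76708792-76726168, −) and Col6a2 and the fibrillar Col3a1 had the largest decreases. Col6a1 went from 759, 2010 and 5710 FPM to 218, 357 and 929 FPM (−2.36 ± 0.37, FDR 6.45e-05), lower in 6 of 6 mice with overlapping groups. Col3a1 went from 147, 3169 and 9224 FPM to 48.0, 715 and 2273 FPM (−2.04 ± 0.30, FDR 3.72e-05). Col1a2 fell by 0.74, whereas Col1a1 (−0.30), the basement membrane chains Col4a1 (−0.05) and Col4a2 (0.00) and Col5a1 (−0.19) were not called. Among 19 elastic fibre genes 2 were higher (10.5% against 12.1% of all genes) and 5 lower (26.3% against 8.31%). Without the library of mouse 3 the numbers were 5 and 6, and without mouse 2 they were 1 and 3. Elastin Eln changed by −2.12 ± 0.59 and the fibulin Efemp1 by −1.81 ± 0.39. The crosslinking enzyme Lox (1.04 ± 0.31, not called without mouse 1 or 2) and the latent TGF-beta binding protein Ltbp1 (1.43 ± 0.27) rose.

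Of 13 lipid efflux and retinoid genes, 8 were lower and 0 higher (61.5% lower against 8.31% of all genes). Without the library of mouse 3 these were 7 lower and 0 higher, and without mouse 2 they were 5 and 0. Abca8a (chr11:110025634-110095978, −) was at 3.47, 23.2 and 119 FPM with EGF+AngII and at 0, 0.340 and 1.81 FPM with U46619, without overlap. Its log2-fold change, −5.63 ± 0.69 (FDR 5.69e-06), was the largest decrease among DEG with the same direction in all 6 mice. Its neighbours Abca9 (−4.17 ± 0.70), Abca8b (−2.44 ± 0.54) and Abca6 (−2.23) on the same chromosome fell as well, while the cholesterol exporters Abca1 (0.32) and Abcg1 (0.35), which belong to other branches, were not called. Adh1, a retinol-oxidizing alcohol dehydrogenase, was at 2.19, 14.9 and 19.7 FPM and then at 0.270, 1.56 and 3.35 FPM (−3.13 ± 0.65, FDR 0.00101). Complement genes had 1 of 15 higher (6.67% against 12.1% of all genes) and 6 lower (40.0% against 8.31%). The complement counts were 0 and 4 without the library of mouse 3 and 0 and 4 without mouse 2. Among the lower genes were the C1 proteases C1s1 (−1.34 ± 0.26, FDR 0.000456) and C1ra (−1.09 ± 0.27), and C3 (−0.79, not without the library of mouse 3).

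Ribosome biogenesis factors rose as a group. Of 33 tested, 26 were higher and 0 lower (78.8% against 12.1% of all genes), with log2-fold changes of 0.26 to 1.70 over the list and a median of 0.63. The counts were 30 and 0 without the library of mouse 3 and 16 and 0 without mouse 2. Rrp12, a factor of ribosome subunit export, was at 13.7, 20.8 and 32.7 FPM and then at 24.3, 46.2 and 53.7 FPM (1.04 ± 0.17, FDR 0.00012), higher in 6 of 6 mice. Nhp2 (1.70 ± 0.25) and Fbl, the rRNA methyltransferase fibrillarin (1.08 ± 0.18), were at 999 and 443 FPM in the library of mouse 3 with U46619, the highest of all, and had log2-fold changes of 1.30 and 0.77 without it. The RNA polymerase I subunits Polr1a, Polr1b and Polr1e and the nucleolar proteins Ncl and Nop56 were higher by 0.55 to 0.77.

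Genes of the ribosomal proteins themselves depended on that library. Of 70 tested, 37 were higher and 0 lower with a median of 0.56, against 4 higher and 0 lower with a median of 0.20 when the library of mouse 3 with U46619 was left out. Of 12 MYC network genes 1 was higher (8.33% against 12.1% of all genes), 2 lower (16.7% against 8.31%) and 9 not called, with a median of −0.16. The counts were 2 and 2 without the library of mouse 3 and 1 and 1 without mouse 2. Myc rose from 24.5, 38.3 and 121 FPM to 56.4, 109 and 114 FPM (1.15 ± 0.24, FDR 0.000958) in 5 of 6 mice. Its antagonists Mxd4 (−0.90 ± 0.26, not called without mouse 2) and Mxd1 (−0.62 ± 0.15) fell. Odc1, the ornithine decarboxylase that starts polyamine synthesis, was at 81.8, 177.2 and 275 FPM and then at 215, 394 and 511 FPM (1.13 ± 0.23, FDR 0.000685), and spermidine synthase Srm rose by 0.89 ± 0.17. Polyamine genes had 5 of 10 higher and 0 lower (2 and 0 without mouse 2). Of 22 ATF4 and amino acid supply genes, 10 were higher (45.5%) and 1 lower (4.55%). Without the library of mouse 3 the numbers were 8 and 1, and without mouse 2 they were 2 and 0. Among the higher genes were the serine and glycine pathway enzymes Phgdh (0.92 ± 0.21), Shmt2 (0.81 ± 0.18) and Psat1 (0.61 ± 0.23, not called without mouse 1, 2, 4 or 5). Chaperones of the endoplasmic reticulum had 3 of 16 higher (18.8%) and 2 lower (12.5%), and Hspa5 was at 0.01. The chaperone counts were 0 and 1 without the library of mouse 3 and 0 and 0 without mouse 2.

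Glycolysis genes rose. Of 18 tested, 11 were higher and 0 lower (61.1% against 12.1% of all genes), with a median of 1.07, and the counts were 12 and 0 without the library of mouse 3 and 10 and 0 without mouse 2. Eno1, enolase (chr4:150236721-150248879, +), was at 360, 873 and 1142 FPM with EGF+AngII and at 1458, 2189 and 3409 FPM with U46619, with no overlap (1.59 ± 0.26, FDR 9.65e-05). The glucose transporter Slc2a1 went from 25.9, 69.2 and 124 FPM to 88.6, 156.1 and 428 FPM (1.46 ± 0.27, FDR 0.000337). The hexokinase Hk2 (1.64 ± 0.40), the lactate exporter Slc16a3 (1.71 ± 0.37) and Ldha (1.32) were higher, and the muscle phosphofructokinase Pfkm (−0.37) and Hk1 (0.08) were not called. Gapdh rose by 1.32. Eno1, Gapdh, Ldha and other members have near-identical copies in the genome, so their counts are uncertain. In the opposite direction, 5 of 23 genes of fatty acid and branched-chain amino acid breakdown were lower (21.7% against 8.31% of all genes) and 0 higher. Without the library of mouse 3 these were 7 lower and 0 higher, and without mouse 2 they were 2 and 0. Examples were Acadm (−0.56 ± 0.16, not without mouse 2) and Hadh (−0.56 ± 0.16, not without mouse 2 or 6). Of 22 genes of cholesterol and fatty acid synthesis 0 were DEG, and 0 had an unadjusted p under 0.05 in edgeR.

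Cell cycle genes were hardly called. DNA replication genes had 2 of 33 higher (Mcm6, 0.61 ± 0.23, and Dut, 0.68 ± 0.25) and 0 lower, and mitosis genes 1 of 33 (Bub3, 0.47 ± 0.15), shares below the 12.1% of all genes. Without the library of mouse 3, or without mouse 2, 0 of either list were called. DNA replication genes had log2-fold changes of 0.05 to 0.68 with a median of 0.43, against −0.03 over all genes tested. Mitosis genes ranged from −0.47 to 0.99 with a median of 0.15. At an unadjusted p under 0.05 in edgeR, 5 DNA replication genes were higher and 0 lower, and 1 mitosis gene was higher and 0 lower. The spread between mice was wide for these genes: Top2a was at 80.9, 172.9 and 524 FPM and then at 51.6, 125 and 628 FPM (−0.08 ± 0.56), and Cdk1 had 0.46 ± 0.41. Cyclin E gene Ccne1 (0.87 ± 0.31) and Cdk4 (0.39 ± 0.12) rose with all libraries but lost their calls without the library of mouse 3. Ccne1 was also not called without mouse 2, 3, 4, 5 or 6, and Cdk4 not without mouse 2 or 5. Among the replication genes, Mcm6 lost its call without mouse 2, 3, 4, 5 or 6, and Dut without mouse 2, 3, 4 or 5. The cell cycle inhibitors Cdkn1b (p27, −0.62 ± 0.13, FDR 0.00129) and Rbl2 (p130, −0.83 ± 0.21, FDR 0.00518) fell in 6 of 6 mice. The list of G1 cyclins and CDK inhibitors had 2 of 20 higher (10.0%), 2 lower (10.0%) and 16 not called. These shares are near those of all genes (12.1 and 8.31%). The counts were 0 and 3 without the library of mouse 3 and 0 and 2 without mouse 2.

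Some genes of quiescence fell. Of 20 FOXO-related and quiescence genes 6 were lower, 0 higher and 14 not called (30.0% lower against 8.31% of all genes; 7 and 0 without the library of mouse 3, 5 and 0 without mouse 2). Klf15, a transcription factor that restrains smooth muscle inflammation (chr6:90462576-90475238, +), was at 11.0, 15.2 and 19.9 FPM and then at 3.80, 5.01 and 9.60 FPM. All libraries with U46619 lay below all libraries without it (−1.39 ± 0.22, FDR 8.44e-05). Sesn1, a sestrin that restrains mTORC1, also fell without overlap (−1.27 ± 0.23, FDR 0.000272), and the growth arrest genes Gas6 (−1.54 ± 0.34) and Gas1 (−1.44 ± 0.28) fell in 6 and 5 of 6 mice. Of 17 clock genes 1 was higher (Bhlhe40, 0.42 ± 0.15) and 2 lower (Per3, −1.15 ± 0.29, and Arntl, −0.78 ± 0.23), and 0 and 0 without mouse 2. The shares were 5.88% higher and 11.8% lower, against 12.1 and 8.31% of all genes. The call of Bhlhe40 was lost without mouse 1, 2, 4, 5 or 6.

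Receptors and paracrine factors of the vessel wall held calls in both directions. The shares of the integrin genes were near those of all genes (12.1% higher and 8.31% lower). The TGF-beta and BMP list had larger shares in both directions. Vasoactive receptors and the PDGF, FGF and IGF list had a larger share of lower genes. These differences in share were not tested. Ednra, the endothelin receptor of smooth muscle, was at 3.78, 9.48 and 16.6 FPM and then at 1.19, 2.48 and 4.85 FPM (−1.79 ± 0.35, FDR 0.000476), and it fell in every mouse. The natriuretic peptide receptors Npr1 (−1.24 ± 0.33) and Npr2 (−0.71) and the lysophosphatidic acid receptor Lpar1 (−0.79 ± 0.16) were lower, and Adra2a (0.91 ± 0.26) and P2ry2 (0.63) higher, out of 20 vasoactive receptors (10.0 and 20.0%, and 2 and 4 also without the library of mouse 3), with Npr1 and Adra2a not called without mouse 2. Of 20 TGF-beta and BMP genes 6 were higher and 5 lower (6 and 5 without the library of mouse 3, 3 and 4 without mouse 2): the ligands Tgfb3 (1.46 ± 0.40, FDR 0.00853) and Inhba (0.80) rose, and the BMP targets Id4 (−1.48 ± 0.31) and Id2 (−0.96), the ligands Bmp4 (−0.98) and Bmp6 (−1.09) and the coreceptor Tgfbr3 (−1.12 ± 0.24) fell. PDGF, FGF and IGF genes had 4 of 24 higher and 6 lower (4 and 5 without the library of mouse 3, 0 and 2 without mouse 2), among them Igf1 (−1.36 ± 0.36), Igfbp5 (−1.61 ± 0.51, not called without mouse 2 or 4) and both PDGF receptors, Pdgfra (−1.10) and Pdgfrb (−0.61). The fibronectin receptor subunit Itga5 rose from 168.8, 324 and 694 FPM to 248, 1040 and 2163 FPM (1.42 ± 0.34, FDR 0.00319), with Itgav (0.52 ± 0.17, not called without mouse 1, 2, 4 or 5) the other of 2 higher among 14 integrin genes (14.3%, and 7.14% lower), and Itgbl1 lower (−1.22 ± 0.26). Of 17 calcium handling and channel genes 2 were lower (11.8%), the T-type channel Cacna1g (−1.31 ± 0.26) and the calcium pump Atp2b4 (−1.28 ± 0.31), with 1 higher and 2 lower without the library of mouse 3.

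Outside the lists, Crct1 had the largest increase among DEG with the same direction in all 6 mice (4.06 ± 0.51, FDR 6.69e-06). It was at 0, 1.67 and 24.2 FPM and then at 1.46, 46.7 and 227 FPM. Vgf was at 0.143, 1.86 and 2.15 FPM with EGF+AngII and at 4.65, 19.5 and 33.2 FPM with U46619, without overlap, and had the smallest FDR of all genes (3.88 ± 0.35, FDR 8.13e-09). Aif1l, an actin-bundling protein (2.60 ± 0.32), and Rab3ip, an activator of Rab8 (1.44 ± 0.18), followed with an FDR of 5.69e-06 each. The non-classical MHC genes H2-M1 (4.00 ± 0.59) and H2-M9 (3.48 ± 0.63) rose, but they resemble each other closely and share reads. Klhl30 (3.05 ± 0.51) and Pilra (2.79 ± 0.44) were also among the largest increases with the same direction in all mice. Lrrc17 (−4.20 ± 0.62), the ferritin receptor Scara5 (−3.83 ± 0.56), Inmt (−3.53 ± 0.85) and Tril (−3.22 ± 0.50) were among the largest decreases. Of these, Scara5 is also one of the adventitial fibroblast markers above. Inmt, which had −4.90 without the library of mouse 3, lost its call without mouse 2 and Klhl30 without mouse 1 or 4.

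**Figure D4:**
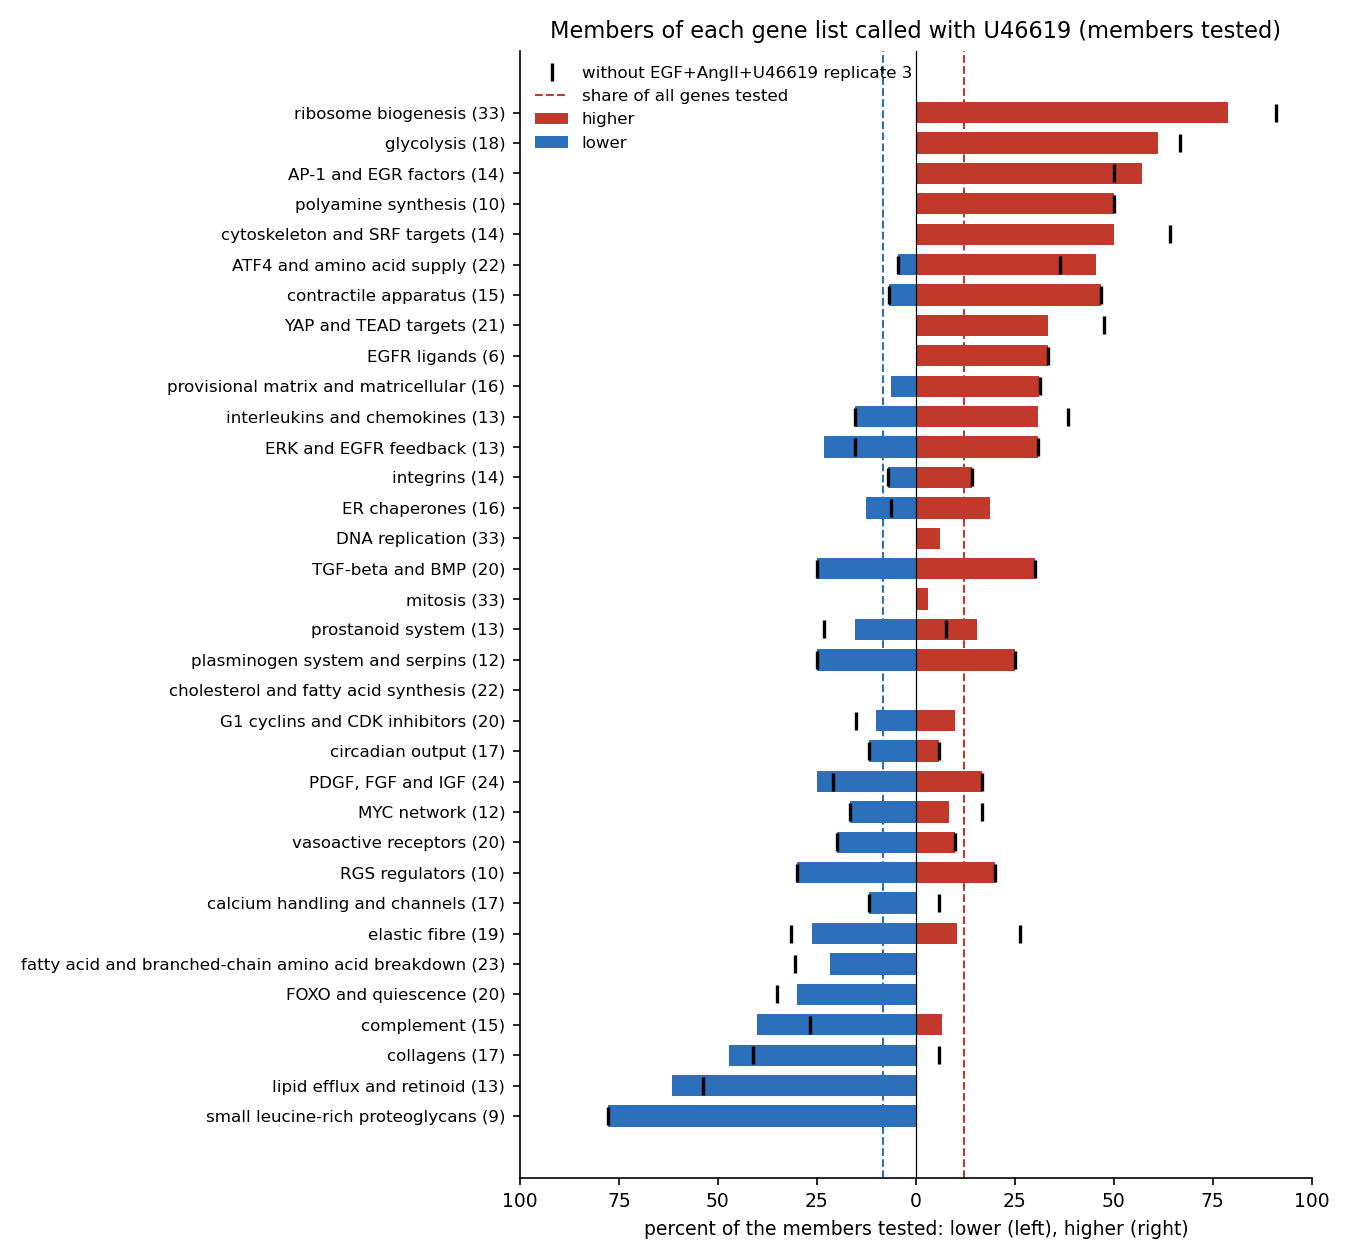
Percent of the tested members of each gene list called higher (red, right) or lower (blue, left) with U46619, with the number tested in brackets. Black marks give the share without the EGF+AngII+U46619 library of mouse 3, and dashed lines the shares of all genes tested, 12.1 and 8.31%. Ribosome biogenesis (78.8% higher) and small leucine-rich proteoglycans (77.8% lower) stand at the ends.

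To see whether the response to U46619 depended on EGF and AngII, the same contrast was set beside U46619 added to EGF (EGF+U46619 against EGF) and U46619 alone (U46619 against control). These contrasts share no library with EGF+AngII+U46619 against EGF+AngII, but come from the same 6 mice. Of the 2989 DEG, 2961 had the same sign when U46619 was added to EGF and 2812 when it was given alone. The DEG were chosen on the first contrast, where their median was 0.61 for higher and −0.73 for lower genes; it was 0.38 and −0.58 with EGF and 0.43 and −0.71 alone. Acta2 had a log2-fold change of 2.17 ± 0.40 with EGF+AngII, 1.99 ± 0.40 with EGF and 2.05 ± 0.39 alone, and Klf15 of −1.39 ± 0.22, −1.49 ± 0.22 and −1.50 ± 0.22.

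**Figure D5:**
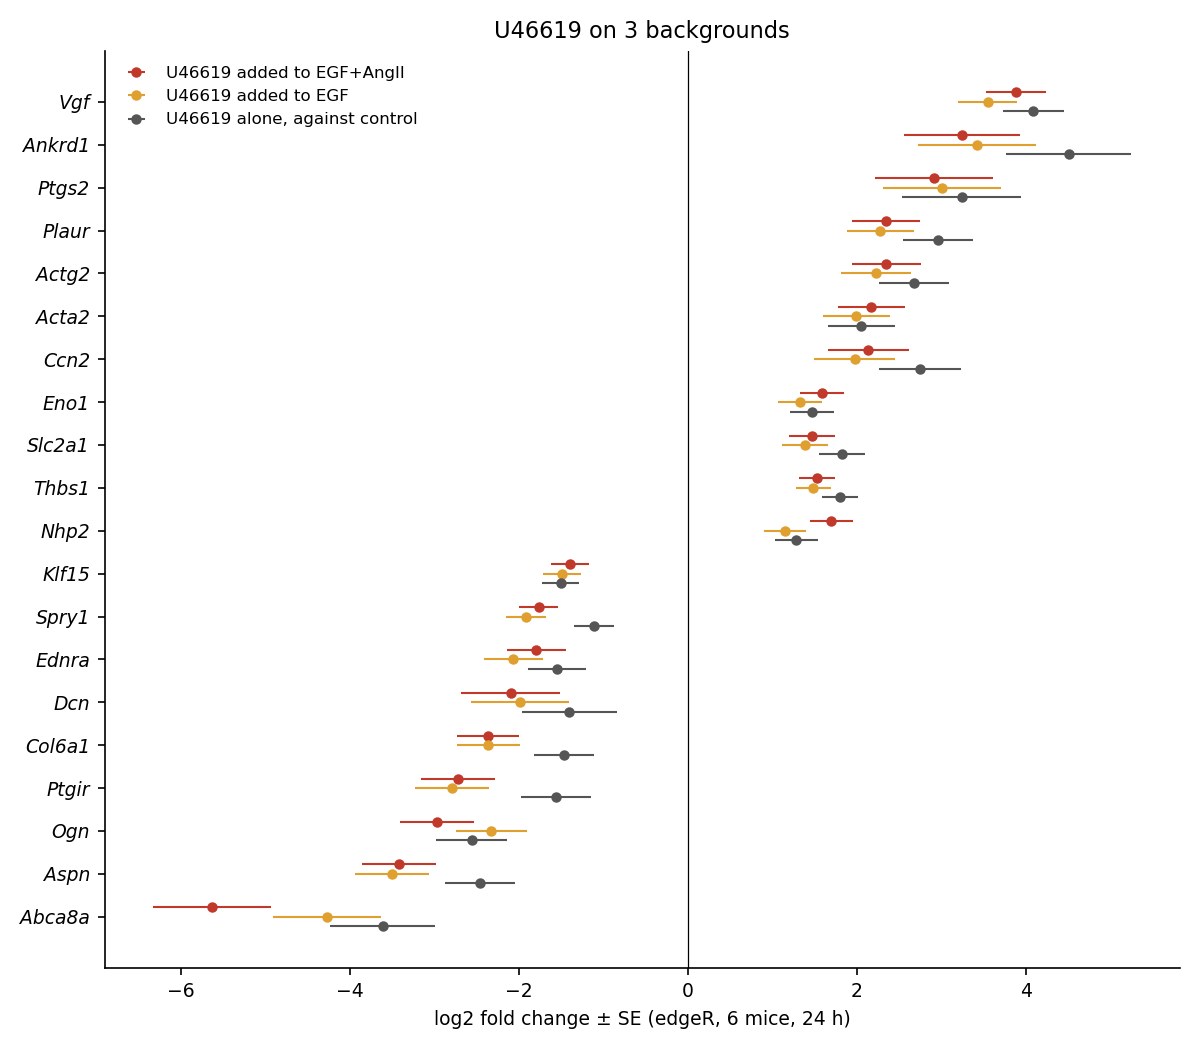
Log2-fold changes (points) and SE (bars) of U46619 in cultures with EGF+AngII (red), with EGF (yellow) and with neither (grey, against control), for 20 genes, from 1 edgeR fit of 6 mice. Every gene shown has the same sign on all 3 backgrounds, and Abca8a ranges from −5.63 ± 0.69 with EGF+AngII to −3.61 ± 0.62 alone.

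The difference between the U46619 effect with EGF+AngII and with EGF passed the call for 0 of 14653 genes (0% called, smallest FDR 0.942 in edgeR and 0.928 in DESeq2, 313 genes with an unadjusted p under 0.05 in edgeR and 300 in both tools). The difference to U46619 alone passed it for 0 genes as well (smallest FDR 0.407 in edgeR and 0.165 in DESeq2), with an unadjusted p under 0.05 in edgeR for 1774 genes, 12.1% of those tested, and in both tools for 1744. The edgeR count was 812 without the library of mouse 3, 728 without mouse 3 and 739 without mouse 2, and the 313 for the difference to EGF became 135 without that library and 134 without mouse 3, and was lower without mouse 2 too. A p that misses the threshold does not show that the effects were equal. DNA replication genes had a median log2-fold change of 0.43 with EGF+AngII, 0.36 with EGF and 1.19 alone, and 14 of 33 were below the effect alone at an unadjusted p under 0.05, against 3.8% of all genes. Mitosis genes had medians of 0.15, 0.31 and 1.22, and 0 of 33 reached that p. Mcm5, a subunit of the replicative helicase, had 0.57 ± 0.41 with EGF+AngII and 1.79 ± 0.43 alone, from 30.3 FPM on average in control cultures and from 117 FPM in EGF+AngII cultures (FDR of the difference 0.407 in edgeR). Spry4 had −1.31 ± 0.48 with EGF+AngII and 0.05 ± 0.47 alone, and Lum −3.41 ± 0.69 and −1.24 ± 0.60. For both the FDR of the difference was above 0.4 in edgeR.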

How the data were processed

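RNA from aVSMC cultures was sequenced after poly(A) enrichment as paired-end reads. The authors aligned reads to mm10 with HISAT2 2.1.0 and counted them per gene with featureCounts, reads placed at several sites included, and deposited raw counts. Whether strand was used is not given in the sources used here. Of 55401 genes, 7075 on chromosomes 9, X and Y and the mitochondrial chromosome are at 0 in every library and are not analysed here. Gene positions come from GENCODE M21 (GRCm38).

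Counts of all 42 libraries collected after 24 h (7 groups, 6 mice) were fitted once with treatment and mouse, in edgeR 4.0.16 (TMM, quasi-likelihood test) and DESeq2 1.42.0 (Wald test) in R 4.3.3, after filterByExpr. DEG needed an FDR under 0.05 in both, a mean of 5 FPM in 1 group compared, and had to pass filterByExpr after 48 h too. DESeq2 gave no FDR for 285 genes, which stay without a call. In lists, a symbol with several rows counts once, by its most abundant row. Within-mouse differences used log2(FPM + 0.5). Cultures of a mouse deviated together (correlation of at least 0.582 in 6 of 6 mice, at most 0.311 with another mouse), so the mouse pairs the libraries. Depth was 16483529 to 20818809 counts per library. The fit was checked on simulated counts.

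The genes named are the receptor genes, the 10 largest increases and decreases among DEG with 1 direction in all 6 mice, the 3 smallest p in each direction, Klf15 and Spp1, and up to 4 members per gene list, except some items not reported here. Other list members are named with their value to complete a list, which was decided after their values were seen. The comparison, lists and rule were chosen with earlier results of these data known. Alternatives were calls by edgeR or DESeq2 alone, a likelihood ratio test, DESeq2 size factors, other filters, no mouse term, only the groups compared, limma 3.58.1, and leaving out each mouse or the library of mouse 3. Figures were drawn with Matplotlib 3.10.9 in Python 3.11.15.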

Additional observations from a re-analysis of the deposited data

Results flagged for a closer look

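Dixon's criterion for 6 values was applied to 14 library measures and to the within-mouse log2 differences of 139 genes, and marked 17, where chance marks about 1 in 20. Of these, 5 were library measures. The EGF+AngII+U46619 library of mouse 3 was apart from its group in the share of ribosomal protein genes (17.5%), the TMM factor (0.646), the share of genes under 1 kb (15.6%) and the share of genes over 5 kb (17.4%), and the EGF+AngII library of mouse 3 in the share of ribosomal protein genes (10.1%). Among the genes, mouse 2 was apart for Nppb (5.96), Ier3 (3.17), Tnc (4.26), Ahcy (1.43), Col6a1 (−4.53), Efemp1 (−3.85), Sesn1 (−2.46) and Igf1 (−3.46), each with the direction of the other mice and a larger size. Mouse 3 was apart for Ereg (−0.72) and Bhlhe40 (−0.62), against the direction of the other mice, and for Rbl2 (−2.33). Mouse 6 was apart for Synm (0.12), which was lower in the other mice.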

How the results depend on the processing

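The 2989 DEG became 2220 to 3567 with each tool alone, the likelihood ratio test, DESeq2 size factors, no FPM minimum or other filters on counts. Leaving out mouse 2 (1263) and 4 other alternatives moved the number by over 1.5 times: 297 with no replicate block (mouse not in the model), 1069 with only the groups compared, 0 with limma on differences within each mouse (smallest FDR 0.0527) and 1855 with the same test without mouse 3, chosen after seeing the data; limma on all 24 h libraries with the replicate block, also chosen after seeing the data, gave 2914. Leaving out each mouse gave 1263 to 3063. The fewer samples behind the spread are part of how the within-mouse and 2-group fits are built, and the cause was not tested further. The 2 tests of a difference between backgrounds gave 0 genes under every alternative. Of 138 named genes, direction changed for Top2a with no replicate block (0.042), without replicate 3 (range −0.21 to 0.070 over the mice left out) and without the EGF+AngII+U46619 library of replicate 3 (0.03), and for Scd2 with no replicate block (0.053), both without a call. Without that library 12 named genes lost their call and 1 gained it, and with no replicate block 103 lost it. The 6 mice and their spread limit which small changes pass.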
